A study of Homo sapiens with 20 samples.

Results

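Cohesin is the ring complex that holds DNA loops together, and most of its stable sites coincide with CTCF, the DNA-binding protein at which the moving ring stops. Rings can also be found without CTCF at active promoters and enhancers, where they are loaded or pass through. Each ring carries either STAG1 or STAG2 beside its core subunits, of which SMC1A is one, and STAG2 is the subunit more often found at sites without CTCF.

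The sites described here were CTCF-free cohesin sites at promoters in M14, an established human melanoma line that carries a doxycycline-inducible shRNA against STAG2. They were peaks of the SMC1A WT list of replicate 1 on chromosomes 1 to 22 and X. Each also overlapped a peak in the SMC1A WT list of replicate 2 and in both WT lists of STAG1 and of STAG2, and overlapped no peak in any of the 4 CTCF lists. The peak midpoint lay within 1 kb of an annotated transcript start. The rule found 566 sites among 82239 SMC1A peaks. Of these peaks, 48019 were cohesin sites by the same 6 WT lists, and 11170 of the cohesin sites were at promoters. A total of 2860 cohesin sites were free of CTCF, and 2294 of those lay away from promoters.

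Cells without doxycycline are called WT and cells with it STAG2-KD. All of them carry the shRNA construct. The labels give 5 days of doxycycline for replicate 1. STAG1, STAG2, SMC1A and CTCF were each measured by ChIP-seq in 2 WT and 2 STAG2-KD libraries, which gives 16 peak lists. Libraries of replicate 1 were sized on beads and those of replicate 2 cut from a gel after another chromatin extraction, so the replicate number marks a shared protocol. The labels do not say whether the libraries came from separate cultures, and the p-values then measure only the spread between these libraries. WT peaks and the lack of CTCF chose the sites, so those are given as description. The STAG2-KD lists of STAG1, STAG2 and SMC1A were not used by the rule.

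Lists held 58418 to 91489 peaks in replicate 1 and 98437 to 150282 in replicate 2. The lowest expected background, which scales with read depth and fragment length, was 0.896 to 1.81 reads in replicate 1 and 2.08 to 3.64 in replicate 2. Within a replicate it differed between WT and STAG2-KD by a factor of 0.987 to 1.10. Fold enrichment, the pileup of reads at the summit over the background expected at that peak as MACS2 gives it, is the measure used below. Only part of the peaks of a list have its lowest background. Where a replicate 1 list had no peak, the site had failed a stricter limit than in replicate 2, since replicate 1 lists were limited by q-value and replicate 2 lists by p-value.

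The sequences below show the range of DNA at these sites. Each is an 81-bp window of the hg19 reference, plus strand, inside the SMC1A peak and as close to its summit as a window outside every annotated exon allowed. Capitals mark matches to a searched motif. The first 3 are CpG-poor sites (the division is defined below), of which LINC02427 was among those where STAG2 was lowest in STAG2-KD relative to WT. The SIL1 site had no STAG2 peak in either STAG2-KD replicate, and the MEF2C site no SMC1A peak in either.
LINC02427, chr4:185458379-185458459: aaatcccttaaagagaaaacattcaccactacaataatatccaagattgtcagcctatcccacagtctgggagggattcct
SIL1, chr5:138289128-138289208: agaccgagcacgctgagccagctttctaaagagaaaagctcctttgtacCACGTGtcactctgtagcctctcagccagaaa
MEF2C, chr5:88123908-88123988: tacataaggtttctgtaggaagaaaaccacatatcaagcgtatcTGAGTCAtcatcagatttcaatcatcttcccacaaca
The next 4 are CpG-rich sites. MAP3K7 and ECH1 were among the sites where STAG2 was highest in STAG2-KD relative to WT, and NUP214 and RBM42 had a far higher fold enrichment of STAG1 than of SMC1A and hold a CRE, the cyclic AMP response element. The last pair was chosen after the values were seen.
MAP3K7, chr6:91297009-91297089: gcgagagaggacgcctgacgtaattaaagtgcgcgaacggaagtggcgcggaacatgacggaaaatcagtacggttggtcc
ECH1, chr19:39322496-39322576: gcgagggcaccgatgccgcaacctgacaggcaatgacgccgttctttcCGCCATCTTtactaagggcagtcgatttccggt
NUP214, chr9:134000879-134000959: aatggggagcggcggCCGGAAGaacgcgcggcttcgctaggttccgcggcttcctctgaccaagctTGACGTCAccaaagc
RBM42, chr19:36119851-36119931: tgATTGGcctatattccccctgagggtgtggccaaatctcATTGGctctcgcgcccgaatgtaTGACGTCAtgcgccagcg
The capitals are an E-box in SIL1, an AP-1 site in MEF2C and a YY1 match in ECH1. In NUP214 they are an ETS match and a CRE, and in RBM42 a pair of NFY matches and a CRE. The window of LINC02427 holds 0 CpG dinucleotides, against 10 in MAP3K7 and 8 in ECH1.

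The sites lay close to the start of transcription. The median distance from midpoint to transcript start was 155 bp, and 227 of the 566 midpoints (40.1%) were within 100 bp. At CTCF-bound cohesin promoter sites, defined by the same rule but with a peak in all 4 CTCF lists (9292 sites), the median was 188 bp and 34.8% were within 100 bp. The nearest start belonged to a protein-coding gene at 400 sites, a lncRNA gene at 138, a pseudogene at 11 and a small RNA gene at 17. A total of 350 sites lay within 1 kb of the 5′ end of a gene as a whole, and the others lay at internal transcript starts only. Transcript starts on both strands were within 1 kb of 120 sites. The sites had 511 distinct nearest genes, with 4 sites at TEX41 and 3 each at DLC1, NR4A2, RBMS1, LNCATV and ENSG00000283286, genes named for that number after it was seen.

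**Figure D1:**
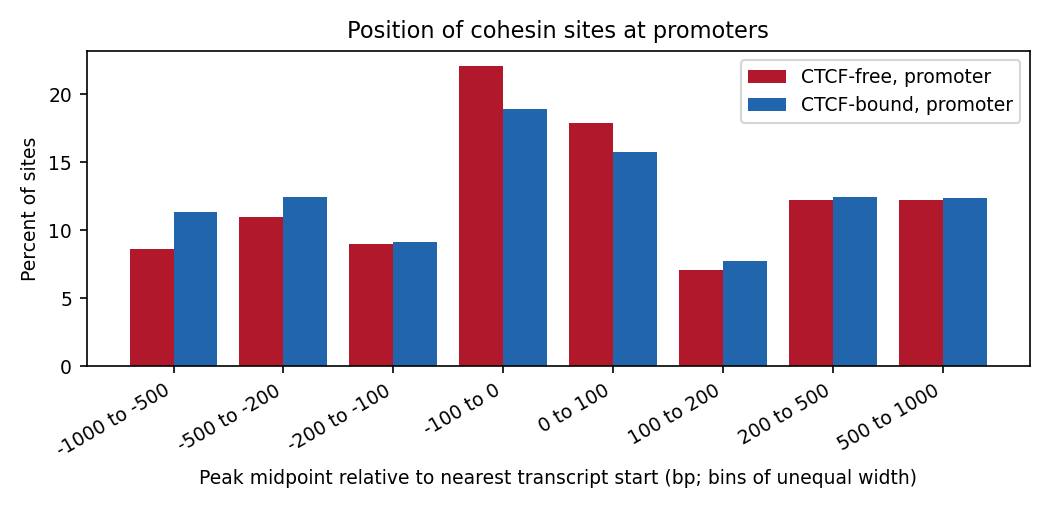
Percent of sites (y axis) by the position of the peak midpoint relative to the nearest transcript start in bp (x axis, bins of unequal width, negative is upstream), for 566 CTCF-free and 9292 CTCF-bound promoter sites. The bins from -100 to 0 bp and from 0 to 100 bp hold 125 and 101 of the CTCF-free sites.

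Peaks of the sites were narrower and lower than those of CTCF-bound promoter sites. The median width was 354.5 bp, from 120 to 1623 bp, against 605 bp at CTCF-bound promoter sites. In WT the median fold enrichment of STAG1, over the sites with a peak in all 4 STAG1 lists, was 4.93 in replicate 1 and 5.06 in replicate 2, against 12.2 and 11.5 at CTCF-bound promoter sites. Medians of STAG2 were 6.21 and 6.24, and of SMC1A 5.91 and 5.99. CTCF was often near: the nearest CTCF peak lay 4 to 63578 bp away, with a median of 1178.5 bp, and 265 sites had a CTCF peak within 1 kb. Since a wide peak can reach a site from its neighbour, the summits were checked. All 6 WT summits were inside the SMC1A interval at 202 sites. Peaks whose summits lay outside can belong mainly to a neighbouring site, and the part this plays in the values below was not tested beyond the values for those 202 sites.

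Just inside the 1 kb limit, LINC02525 lay 1000 bp and PRKACB and SLC23A2 996 bp from a start, with STAG2 WT fold enrichments of 3.29 to 5.50. Just outside, the nearest sites were at ENSG00000238171, RNA5SP40 (1005 bp) and ENSG00000260953 (1010 bp), with 4.48 to 11.3.

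The 8 sites with the highest WT percentile of −log10 p-value over the 6 lists were at LINC02427, MARCKS, TSC22D1 (2 sites), ENSG00000289994, CCDC26 (2 sites) and TBL1X. Both sites at CCDC26 shared their STAG1 and STAG2 peaks, and both at TSC22D1 their STAG2 peaks. For STAG2 the 8 sites thus hold fewer than 8 separate peaks. At the site of TBL1X, a subunit of a corepressor complex, all 6 WT summits were inside. STAG2 there was 27.4 and 24.7 in WT and 20.9 and 22.9 in STAG2-KD, in the order replicate 1 and 2. STAG1 was 12.5 and 16.6 in WT and 26.8 and 16.1 in STAG2-KD, so the replicates moved in opposite directions. SMC1A was 10.9 and 12.3 in WT and 15 and 23.4 in STAG2-KD, higher in both. At MARCKS, a substrate of protein kinase C, the nearest CTCF peak was 6 bp away and the WT summits were not all inside. STAG2 there was 65.7 and 45.0 in WT and 3.46 and 45.2 in STAG2-KD, while SMC1A was 6.43 and 29.96 in WT and 40.5 and 40.1 in STAG2-KD.

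Whether the sites kept cohesin after the knockdown was asked of the STAG2-KD lists. In replicate 1, 219 of the 566 sites (38.7%) had no STAG2 peak in STAG2-KD, and in replicate 2 it was 11 (1.94%). Over all 48019 cohesin sites it was 11.3% and 0.891%. No STAG1 peak was listed at 18.2% and 3.18% of the sites, with 3.07% and 0.66% over all cohesin sites. No SMC1A peak was listed at 11.7% and 0.53%, with 4.62% and 0.631% over all. The shares were lower at the 202 sites with all 6 WT summits inside. They were 25.2% and 0.990% for STAG2, 12.4% and 0.495% for STAG1, and 3.96% and 0.495% for SMC1A. Those of SMC1A were thus below the shares over all cohesin sites, which were not limited by their summits. Peaks in all 6 STAG2-KD cohesin lists were present at 304 of the 566 sites (53.7%). That share was not counted over all cohesin sites, so it is given as description only. The sites were chosen for a WT peak and could only lose it, so no test was made of these shares. The replicates differed widely in each share. The mean was 20.3% ± 26.0 (SD, n = 2) for STAG2, 10.7% ± 10.6 for STAG1 and 6.10% ± 7.87 for SMC1A. With lists of equal length the STAG1 mean was 24.5%.

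**Figure D2:**
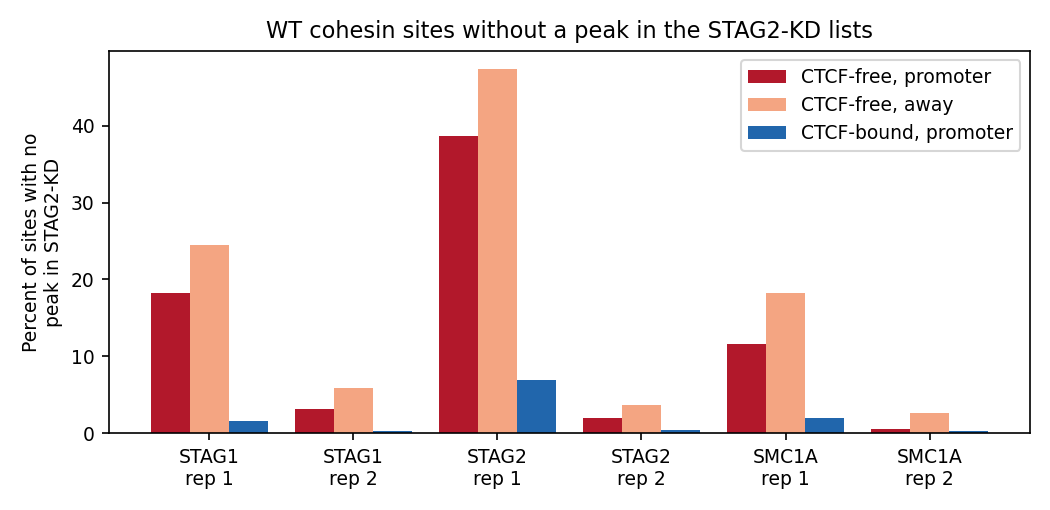
Percent of WT cohesin sites with no peak in the STAG2-KD list (y axis) for each antibody and replicate (x axis), in CTCF-free promoter sites (566), CTCF-free sites away from promoters (2294) and CTCF-bound promoter sites (9292). In each of the 6 pairs of lists the CTCF-free promoter sites lie between the other classes.

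The shares lay between those of CTCF-bound promoter sites and of CTCF-free sites away from promoters in every list. CTCF-bound promoter sites had no STAG2 peak at 6.87% and 0.441%, and CTCF-free sites away from promoters at 47.4% and 3.62%. The difference from CTCF-bound promoter sites was 31.8 percentage points in replicate 1 and 1.5 in replicate 2 (exact sign-flip test, two-sided, p = 0.5, the smallest that 2 replicates allow). When CTCF-bound sites were weighted to the same WT strength, the mean difference of 16.7 points became 7.04 and the replicates no longer had the same sign (exact sign-flip p = 1.0). Against CTCF-free sites away from promoters the difference was -8.69 and -1.67 points (exact sign-flip p = 0.5).

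Some sites were without the peak in both STAG2-KD replicates: 1.77% for STAG2, 3.00% for STAG1 and 0.53% for SMC1A. The share in both was not counted over all cohesin sites. Their share without the peak in replicate 2 alone was 0.891%, 0.66% and 0.631%, in that order. For STAG2 there were 10, with WT fold enrichments of 2.19 to 9.06. The 5 with the highest mean percentile of −log10 p-value in both WT lists of STAG2 were at GORAB-AS1, TMC1, FAN1, SIL1 and RNY1. GORAB-AS1 had a STAG2 fold enrichment of 8.11 and 6.52 in WT. The site at SIL1, a nucleotide exchange factor of the endoplasmic reticulum chaperone BiP, kept STAG1 at 6.72 and 4.46 in STAG2-KD, against 4.32 and 3.39 in WT. FAN1, a DNA repair nuclease, had neither STAG peak in STAG2-KD while SMC1A was 5.07 and 5.15, against 5.24 and 5.60 in WT. For STAG1 there were 17 such sites, among them CDC73, a subunit of the PAF1 elongation complex, SNORD118, a small nucleolar RNA, and RPS27P30. For SMC1A there were 3: TRUB1, a pseudouridine synthase, RNU6-251P and MEF2C, a transcription factor.

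Where a site kept its peaks, STAG2 was lower in STAG2-KD in replicate 1 and nearly level in replicate 2. Median STAG2 over the 346 sites with all 4 peaks was 6.21 in the WT library and 5.14 in the STAG2-KD library of replicate 1, and 6.24 and 6.12 in those of replicate 2. The mean change was -0.15 ± 0.17 on the log2 scale (SD, n = 2 replicates; exact permutation of the 4 libraries, two-sided, p = 0.33, the smallest it can give). STAG1 over 462 sites was 4.93 and 5.77 in replicate 1 and 5.06 and 4.92 in replicate 2, a log2 change of 0.092 ± 0.19 (exact permutation p = 1.0). SMC1A over 500 sites was 5.91 and 6.29, and 5.99 and 6.36, a log2 change of 0.088 ± 0.0028 (exact permutation p = 0.33). Where all WT summits were inside, the log2 change of SMC1A was only 0.018 and 0.017.

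**Figure D3:**
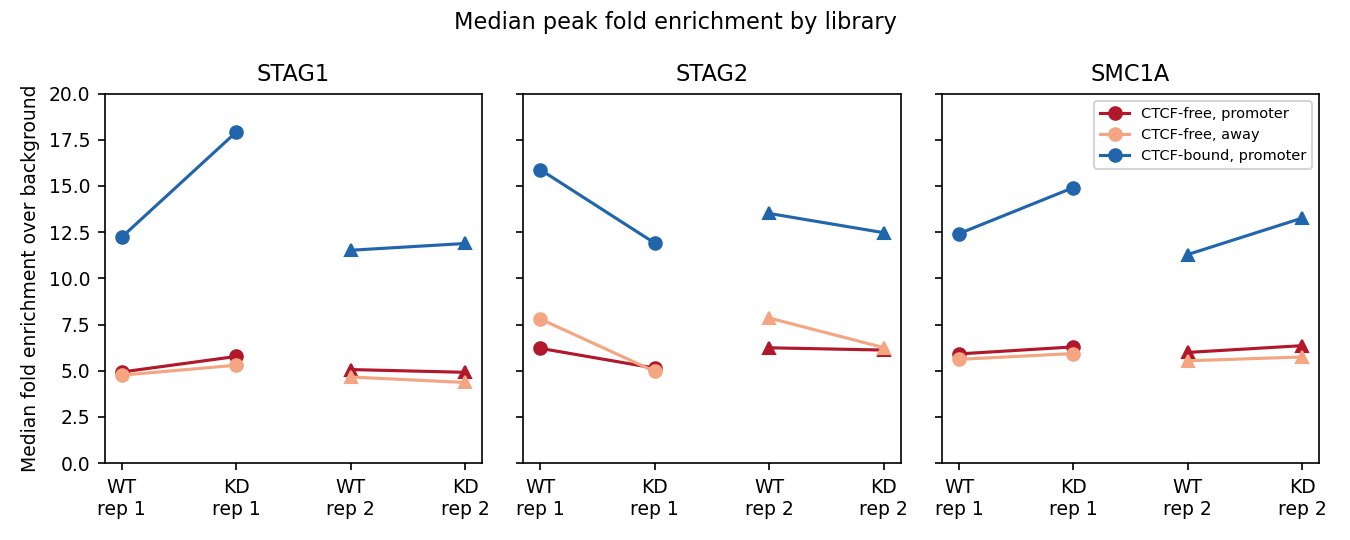
Median fold enrichment over background (y axis, linear) in WT and STAG2-KD libraries of each replicate (x axis), for 3 antibodies and 3 classes of site with a peak in all 4 lists of the antibody. The CTCF-free classes sit between 4.36 and 7.85, and CTCF-bound promoter sites between 11.3 and 17.9.

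STAG2 was lower in both replicates at 151 of the 346 sites (43.6%), while it was higher in both at 92 (26.6%). Over all cohesin sites with 4 STAG2 peaks it was lower in both at 58.4%, so the share at CTCF-free promoter sites was below the background. It was higher in both at 12.9% of all cohesin sites, so that share was above it. Other cohesin promoter sites had a CTCF peak in 1 to 3 of the 4 lists. STAG2 there was lower in both at 39.1% and higher in both at 23.5%, so this was not particular to CTCF-free promoter sites. STAG1 there was higher in both at 35.6% and SMC1A at 39.1%. At CTCF-free sites away from promoters STAG2 was lower in both at 69.5% and higher in both at 6.96%. At the CTCF-free promoter sites STAG1 was higher in both replicates at 32.5%, with 48% over all cohesin sites, and SMC1A at 40.2%, with 54.4%. STAG1 was lower in both at 29.9%, with 16.9% over all, so it was lower about as often as higher, and SMC1A was lower in both at 24.6%, with 17.9%. At CTCF-bound promoter sites the log2 change of STAG1 was 0.55 and 0.045 and that of SMC1A 0.26 and 0.23, larger than at the CTCF-free sites in each replicate. The difference in STAG1 was -0.21 ± 0.17 and in SMC1A -0.16 ± 0.020 (exact sign-flip p = 0.5 for both). On the scale of percentiles within a list the mean of both differences changed sign, to 2.24 ± 3.73 and 0.197 ± 2.32 percentile points, with replicates of opposite sign, so no order of these classes is given. For STAG2 the difference of 0.12 ± 0.040 also turned, to -0.093, after weighting to equal WT strength.

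The STAG2 change at promoters was nearer to 0 in both replicates than at CTCF-free sites elsewhere. Away from promoters the log2 change was -0.65 and -0.33, against -0.27 and -0.029 at promoters, a difference of 0.34 ± 0.057 (exact sign-flip p = 0.5). After weighting to equal WT strength it was 0.086. At the 202 promoter sites with all WT summits inside, the STAG2 changes were -0.22 and -0.057.

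Within the promoter sites, the STAG2 values differed with base composition. CpG-rich sites, with at least 50% GC and a CpG ratio of at least 0.6 within 100 bp of the SMC1A summit, numbered 250, and the other 316 are called CpG-poor. This division was made after the values were seen. Among 182 CpG-rich sites with 4 STAG2 peaks, the median was 5.73 (WT) and 5.52 (STAG2-KD) in replicate 1, and 5.21 and 5.81 in replicate 2. Among 164 CpG-poor sites it was 7.22 and 4.8, and 7.33 and 6.56. The log2 change was thus -0.053 and 0.16 at CpG-rich sites and -0.59 and -0.16 at CpG-poor sites, a difference of 0.43 ± 0.15 (exact sign-flip p = 0.5). CpG-rich sites had no STAG2 peak in STAG2-KD at 26.8% and 0.8%, and CpG-poor sites at 48.1% and 2.85%. STAG2 was higher in both replicates at 74 of the 182 CpG-rich sites (40.7%) and at 18 of the 164 CpG-poor ones (11.0%), with 12.9% over all cohesin sites. It was lower in both at 52 (28.6%) and 99 (60.4%), with 58.4% over all, so the CpG-poor sites were near the background in both directions. Weighted to equal WT strength, the difference in change was 0.13 ± 0.17. It was 0.30 ± 0.27 where all WT summits were inside. STAG1 and SMC1A differed less between the kinds, by 0.085 ± 0.080 and -0.056 ± 0.044.

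**Figure D4:**
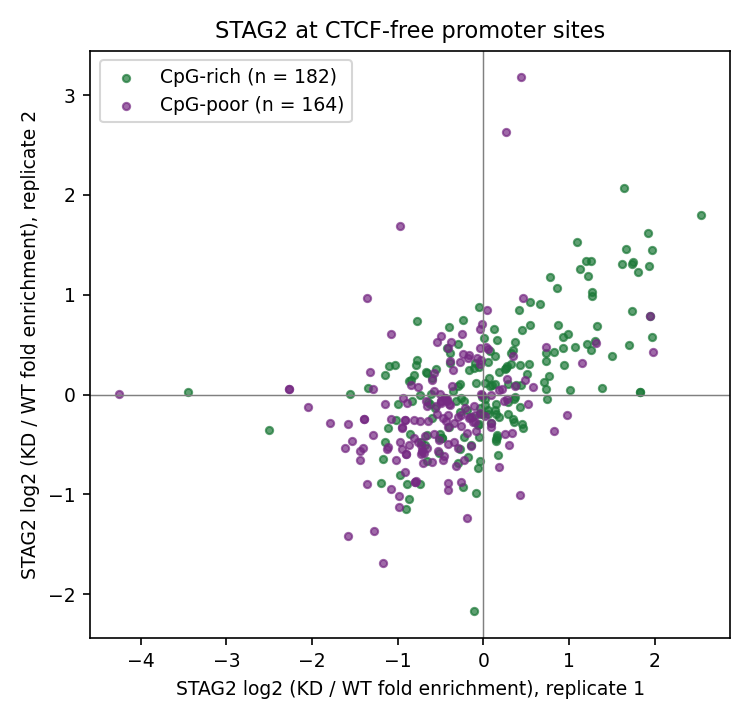
Log2 ratio of STAG2 fold enrichment, STAG2-KD over WT, in replicate 1 (x axis) and replicate 2 (y axis), 1 point for each of 346 sites with 4 STAG2 peaks (182 CpG-rich, 164 CpG-poor). Points in the upper right are higher in both replicates (74 CpG-rich, 18 CpG-poor).

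At the ends of the range, MAP3K7, a kinase of the TGF-beta and NF-kappaB pathways, had the largest positive STAG2 change. STAG2 there was 4.18 and 3.89 in WT and 24.3 and 13.5 in STAG2-KD. STAG1 at this site was 44.1 and 35.8 in WT and 50.4 and 36.6 in STAG2-KD, high in all 4 libraries. At DZANK1 STAG2 was 6.32 and 2.46 in WT and 19.7 and 10.3 in STAG2-KD, and at DHFR2, a dihydrofolate reductase, 5.86 and 3.78 in WT and 22.2 and 11.6 in STAG2-KD. At ECH1, a peroxisomal and mitochondrial enzyme of fatty acid oxidation, it was 2.73 and 3.18 in WT and 10.7 and 8.66 in STAG2-KD. The nearest CTCF peak was 11789 bp from MAP3K7 and 5745 bp from DHFR2, but 93 bp from DZANK1 and 207 bp from ECH1.

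The most negative STAG2 changes were at LINC02427, FAM72A, ENSG00000236283, LINC02941 and NXN. At LINC02427 STAG2 was 48.4 and 37.5 in WT and 16.2 and 14 in STAG2-KD. At FAM72A it was 19.1 and 7.77 in WT and 3.36 and 6.08 in STAG2-KD, and at LINC02941 9.91 and 8.35 in WT and 4.08 and 3.24 in STAG2-KD. The nearest CTCF peaks of LINC02427, FAM72A and LINC02941 were 51, 352 and 1005 bp away. These sites were picked for their change, none was tested alone, and the WT summits were not all inside at any site named here for its STAG2 change.

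The largest positive STAG1 changes were at ENSG00000278595, MYC, LINC00705, TRIB1 and MYO5A. At MYC, the growth-promoting transcription factor, the site was at chr8:128751540-128751944, 423 bp downstream of an annotated start. STAG1 there was 5.49 and 36.6 in WT and 72.1 and 40.4 in STAG2-KD. The WT library of replicate 1 was far below the other 3, and a CTCF peak lay 536 bp away. All 5 sites had a CTCF peak within 1 kb, and at none of them were all WT summits inside.

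A set of 47 sites had a much higher fold enrichment of STAG1 than of SMC1A. Fold enrichments of different antibodies are not on a common scale, so this ratio does not compare amounts of protein. The sites, picked after the values were seen, had a STAG1 fold enrichment at least 3 times that of SMC1A in both WT replicates. They made up 8.30% of the CTCF-free promoter sites, against 1.03% of CTCF-bound promoter sites and 0.0872% of CTCF-free sites away from promoters (2 of 2294). Among CTCF-bound cohesin sites away from promoters there were 574 (1.72%). The share was not counted over all cohesin sites, nor at promoter sites with a CTCF peak in 1 to 3 lists. CpG-rich sites were 42 of the 47, and 33 were within 100 bp of a start. All 6 WT summits were inside at 20 of them. Some neighbouring sites shared a STAG1 peak, as both sites at RBM42 did, so the 47 sites hold fewer than 47 separate STAG1 peaks. The median STAG1 over the 46 with 4 peaks was 35.1 and 24.7 in WT and 30.9 and 23 in STAG2-KD. NUP214, a nuclear pore protein, had STAG1 of 62.1 and 38.5 in WT with SMC1A of 5.93 and 6.26. MED27, a Mediator subunit, had STAG1 of 49.6 and 31.8 with SMC1A of 7.24 and 4.57. By the same choice, the set also held PSMB2, EIF2B1, RPL8, RPL23, MAGOH and TAF11. STAG2 was higher in both STAG2-KD replicates at 17 of the 37 with 4 STAG2 peaks (45.9%), against 75 of 309 at the other sites and 12.9% of all cohesin sites. Over all CpG-rich CTCF-free promoter sites the share was 40.7%, so that of this mostly CpG-rich set was near it. Without these 47 sites, the difference in STAG2 change between CpG-rich and CpG-poor sites was 0.41 ± 0.11.

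In base composition the sites lay between CTCF-bound promoter sites and CTCF-free sites elsewhere, while motif shares followed no single order. Median GC content within 100 bp of the SMC1A summit was 53.7%, against 61.7% at CTCF-bound promoter sites, 43.8% at CTCF-free sites away from promoters and 60.2% at all transcript starts of protein-coding genes. A motif was counted once per window, on either strand. The AP-1 motif TGANTCA, bound by FOS and JUN dimers, was in 9.72% of the windows, against 3.76%, 20.7% and 4.05% in the same order. The SP/KLF motif GGGCGG was in 29.5%, against 36.6%, 3.92% and 36.0%. The ETS motif CCGGAAG was in 6.01%, against 5.15%, 0.872% and 8.17%, and the CRE TGACGTCA in 1.94%, against 0.57%, 0.0872% and 1.23%. The core motif of CTCF was in 1 window, near CAMK2N1, where the nearest CTCF peak was 234 bp away, against 19.8% of windows at CTCF-bound promoter sites and 1.33% at transcript starts.

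**Figure D5:**
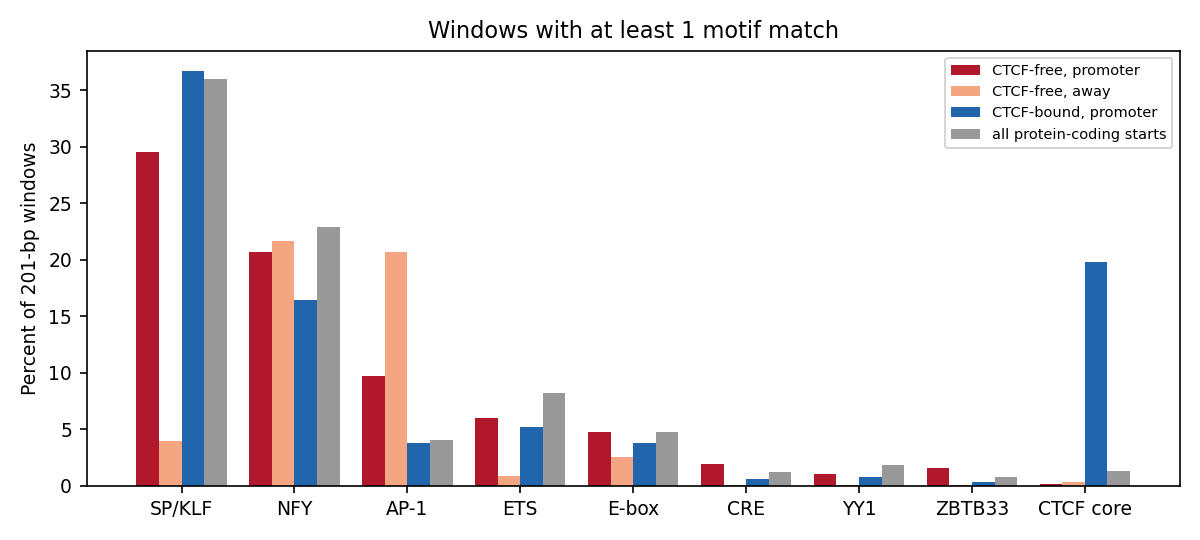
Percent of windows of equal length with at least 1 match (y axis) for 9 of the motifs searched (x axis), in 3 classes of cohesin site and at all transcript starts of protein-coding genes. AP-1 is at 9.72% in CTCF-free promoter sites and at 20.7% in CTCF-free sites away from promoters, and the CTCF core at 0.177% and 0.305%.

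AP-1 and SP/KLF matches divided with the base composition that defined the kinds. SP/KLF was in 56.4% of CpG-rich sites, and AP-1 in 1.2% of them. In CpG-poor sites the shares were 8.23% and 16.5%. NFY (CCAAT) was in 20.7% of all sites and 22.9% of windows at transcript starts, and the E-box CACGTG in 4.77% and 4.74%, so both were near the share at starts. The IRF motif GAAANNGAA was in 8.48% and 5.32%, NRF1 (GCGCATGC) in 1.77% and 1.92%, and ZBTB33 (TCTCGCGA) in 1.59% and 0.77%. YY1 (AAGATGGCG) was in 1.06% and 1.86%, RFX (GTTGCCATG) in 0.177% and 0.451%, and ZNF143 (ACTACAATT) in 0 sites and 0.205% of windows at starts. A CRE was in 7 of the 47 sites with high STAG1 and in 4 of the others (0.771%). All 11 sites with a CRE were CpG-rich (4.4% of the CpG-rich sites). CpG-rich sites were 42 of the 47 but only 40.1% of the others, so these shares do not compare like sites.

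Of 20090 protein-coding genes, 437 (2.18%) had a site within 1 kb of a start, and the gene lists were read against that share. Of 17 MAPK feedback and ERK target genes, 4 had a site: SPRY1, SPRY4, SPRED2 and ETV1. SPRY1, SPRY4 and SPRED2 restrain RAS signalling, and ETV1 is an ETS transcription factor. Of the same 17 genes 12 had a CTCF-bound cohesin site, as did 31.5% of all protein-coding genes. The CTCF-bound share was also high in other lists named below. It was 65.2% for immediate early and AP-1 genes and 50% for melanocyte lineage genes and for interferon receptors and signal transducers. Among lists above 2.18%, only the splicing factor, chaperone, mitochondrial ribosomal protein and histone lists had a CTCF-bound share below 31.5%. At SPRED2 all WT summits were inside, and STAG2 was 7.43 and 6.25 in WT and 4.66 and 5.98 in STAG2-KD. At SPRY4 STAG2 was 4.35 and 3.45 in WT, and no peak and 3.29 in STAG2-KD.

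Melanocyte lineage genes had a site at 3 of 22: MITF, the master regulator of the lineage, DCT, an enzyme of melanin synthesis, and LEF1, a WNT effector. At DCT STAG2 was 9.45 and 10.5 in WT, and no peak and 4.06 in STAG2-KD, and SMC1A went from 9.11 and 6.92 to 2.93 and 5.06. The nearest CTCF peak was 26391 bp away, and both SMC1A values were lower in STAG2-KD. At MITF all WT summits were inside, with STAG2 at 4.77 and 6.87 in WT and 4.48 and 5.31 in STAG2-KD. Immediate early and AP-1 genes had 2 of 23, MYC and KLF6.

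Cytosolic ribosomal protein genes had 6 of 82: RPL8, RPL23, RPL28, RPS7, RPS10 and RPS27. Members of this list and of the histone list are named here after their values were seen. At RPS7 STAG2 was 4.18 and 4.73 in WT and 10.0 and 6.45 in STAG2-KD, higher in both replicates, while at RPL28 it was 6.06 and 4.20 in WT and no peak and 2.36 in STAG2-KD. Replication-dependent histone genes had 6 of 68, which were H2AC16, H2BC5, H2BC6, H2BC9, H2BC15 and H4C5. Mitochondrial ribosomal proteins had 3 of 78, translation initiation factors 3 of 55 and the proteasome 1 of 39.

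Interferon receptors and signal transducers had 2 of 20, IFNAR2 and STAT3, and interferon-stimulated genes 1 of 30, USP18, which removes ISG15 from proteins. At USP18 the peaks of STAG1, STAG2 and SMC1A were all missing in STAG2-KD in replicate 1. In replicate 2 STAG2 was 6.69 in WT and 2.94 in STAG2-KD, SMC1A 5.99 and 3.66, and STAG1 3.54 and 4.02. At STAT3, with all WT summits inside, STAG2 was 5.30 and 5.81 in WT, and no peak and 3.64 in STAG2-KD, while SMC1A was 5.02 and 6.37 in WT and 9.17 and 5.45 in STAG2-KD. At IFNAR2, a chain of the type I interferon receptor, STAG2 was 6.53 and 3.88 in WT, and no peak and 5.39 in STAG2-KD. SMC1A there was 4.66 and 5.23 in WT and 7.45 and 7.17 in STAG2-KD, higher in both replicates, with a CTCF peak 14 bp away. Genes of cohesin and its regulators had 1 of 19, SGO1, which protects cohesin at centromeres. SR and hnRNP splicing factors had 2 of 27, heat shock and chaperone genes 2 of 26, and lysosome and autophagy genes 2 of 24. Glycolysis, antigen presentation, snoRNA host, hepatocyte, lymphocyte and olfactory receptor genes had 0 of 19, 19, 16, 18, 17 and 414. ZNF genes had 8 of 508 (1.57%).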

How the data were processed

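ChIP-seq peak lists of STAG1, STAG2, SMC1A and CTCF in WT and STAG2-KD M14 cells were used, 16 in all; inputs served only as the authors' controls. The study's methods name bowtie2 and hg19 for alignment, samtools and picard for filtering, and MACS2 with input as control; the labels name BWA for replicate 2, so the aligner there is uncertain. The deposited lists give a fold enrichment ratio, −log10 p-values and q-values, and a score (not used). Replicate 1 lists were limited by q-value and replicate 2 lists by p-value. Peaks off chromosomes 1 to 22 and X were left out (3.02% to 4.76% of replicate 1, 0.145% to 0.298% of replicate 2).

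Overlap meant at least 1 shared base, and the overlapping peak with the highest −log10 p gave the value. Starts came from GENCODE version 44 lifted to hg19. Older gene symbols were matched through RefSeq synonyms (GRCh38.p14). Medians were compared by exact permutation of 4 libraries (smallest p 0.33), and classes by an exact sign-flip over 2 replicates (smallest p 0.5). Same-numbered libraries deviated together over the sites (correlation 0.48 for STAG1, 0.42 for STAG2, 0.51 for SMC1A), and the labels give them a shared protocol. Depth was read from the lowest expected background that fits the deposited fold and p-value. The membership rule and summaries were tested on simulated lists. The sites, lists and tests were chosen with earlier results of these data known. Genes outside the following rule are marked in the text. Named sites are the 8 with the highest WT percentile, up to 5 per antibody without a STAG2-KD peak in both replicates, the 5 largest changes of STAG2 in each direction and rises of STAG1 with the same sign in both replicates, genes of the shorter lists, and sites at the 1 kb limit. Python 3.11, scipy and pandas were used.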

Additional observations from a re-analysis of the deposited data

How the results depend on the processing

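The number of sites was 566, and 359 with protein-coding transcript starts only, 301 with no CTCF peak within 1 kb, 180 with −log10 q of at least 5, 348 from the SMC1A list of replicate 2, 202 with all WT summits inside (chosen after the values were seen), and 1334 to 2300 from 1 replicate alone. The share without a STAG1 peak was 24.5% with lists of equal length and 16.1% to 24.9% from 1 replicate alone, where the sites were also chosen from that replicate. From 1 replicate alone the STAG1 change was -0.045 to 0.26, STAG1 against CTCF-free sites away from promoters -0.012 to 0.11, SMC1A against them -0.025 to 0.064, and the difference between CpG-rich and CpG-poor sites in the share without STAG1 -5.37 to 0.035 points. The STAG2 change against CTCF-bound promoter sites was -0.059 with absent peaks at the lowest listed fold enrichment, -0.093 weighted to WT strength and -3.07 percentile points; STAG1 and SMC1A became 2.24 and 0.197 percentile points. The cause of these turns was not tested. Within 250 bp of the summit motif shares were 13.3% (ETS), 45.6% (SP/KLF), 44.7% (NFY), 10.1% (E-box), 19.96% (AP-1), 4.06% (CRE), 3.00% (ZBTB33) and 17.3% (IRF), as the windows are longer; at the STAG2 summit IRF was 5.65%. Within 500 bp, 1 splicing factor gene had a site. No other change or difference turned its direction, but sizes moved, as from 0.34 to 0.086 and from 0.43 to 0.13 for STAG2 after weighting. With the replicate as a block the STAG2 change of -0.15 had an exact sign-flip p of 0.5, and since neither test can pass 0.05, the block could change no call. Neither exact test used can reach 0.05, and the limit of each list sets which low peaks count as absent.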

Other observations

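The 1312 cohesin promoter sites with a CTCF peak in 1 to 3 of the 4 lists were compared above only by the direction of change. They are among all cohesin sites. Over 993 of them with all 4 STAG2 peaks, the median STAG2 fold enrichment of replicate 1 was 6.53 in WT and 5.52 in STAG2-KD. For replicate 2 it was 6.60 and 6.45. No STAG2 peak was listed in STAG2-KD at 24.3% and 0.838% of them.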
